A study of Mus musculus with 6 samples.

Results

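The genes described here are 9 transcription factors that hold epithelial cells in their epithelial state. They are the zinc finger repressors Ovol1 and Ovol2, the grainyhead factors Grhl1, Grhl2 and Grhl3, the epithelial ETS factors Elf3, Elf5 and Ehf, and the p53 relative Trp63, which encodes p63. They were taken by gene name, with no measured value in the rule. All 9 were among the 18512 rows of the count table. Only 4 of them, Elf3, Ehf, Grhl1 and Ovol1, passed the filter on low values, a mean of at least 20 normalized counts over all libraries, which 13353 rows passed.

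RNA from NMuMG cells, an established line of mouse mammary gland epithelium, was sequenced in 6 libraries, 2 for each of 3 groups. DMSO cells received the vehicle alone. TGF-β cells received TGF-β at 5 ng/ml, a cytokine that drives epithelial cells towards a mesenchymal state (the epithelial to mesenchymal transition, EMT). TGF-β+2APB cells received TGF-β together with 2APB at 50 uM, a modulator of store-operated calcium entry. The paper describes 2APB as blocking the calcium channels ORAI1 and ORAI2 while raising calcium entry through ORAI3. The sequenced cells are described as treated for 24 h, while the general protocol has 2APB given for 24 h before TGF-β, and which of these holds for the libraries was not resolved here. The groups ask what TGF-β did to gene expression and what 2APB changed on top of it. No library of 2APB without TGF-β was analysed here, so 2APB was measured only in the presence of TGF-β. The libraries of a group were described as biological replicates of the same cell line, and p-values measure the spread between such libraries. The total count per library lay between 71840570 and 79473182. Every value in the table was even, the smallest above 0 being 2.

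Epithelial identity is kept by transcription factors that switch on junction, polarity and surface genes while repressing the mesenchymal programme. GRHL2 and OVOL proteins oppose ZEB1 and related repressors of epithelial genes that drive EMT, and each side can silence the other. ELF3, ELF5 and EHF are ETS factors largely restricted to epithelia, ELF5 directing milk-secreting alveolar cells, and p63 maintains the basal layer of stratified epithelia and of the mammary gland.

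Of the 9 genes, Elf3 and Ehf carried nearly all of the signal. TGF-β lowered both, Ehf by 9.13-fold and Elf3 by 5.19-fold. With 2APB added they moved in opposite directions, Elf3 to 1.86-fold above its level in TGF-β cells and Ehf to 1.87-fold below it. Grhl1 and Ovol1 did not pass the test in any comparison, and the counts of Elf5, Ovol2, Grhl2, Grhl3 and Trp63 were between 0 and 18 in every library. Elf3 and Ehf made up 97.99% and 98.11% of the 9 genes' summed counts in the DMSO libraries, 91.03% and 92.15% in the TGF-β libraries, and 92.18% and 91.46% in the TGF-β+2APB libraries. The sum of the 9 genes was 154.4 and 154.9 CPM (counts scaled to a common library total) in DMSO, 25.82 and 21.42 in TGF-β, and 29.93 and 29.72 in TGF-β+2APB. In bulk RNA, fewer cells that express a gene and less RNA per cell cannot be told apart.

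**Figure D1:**
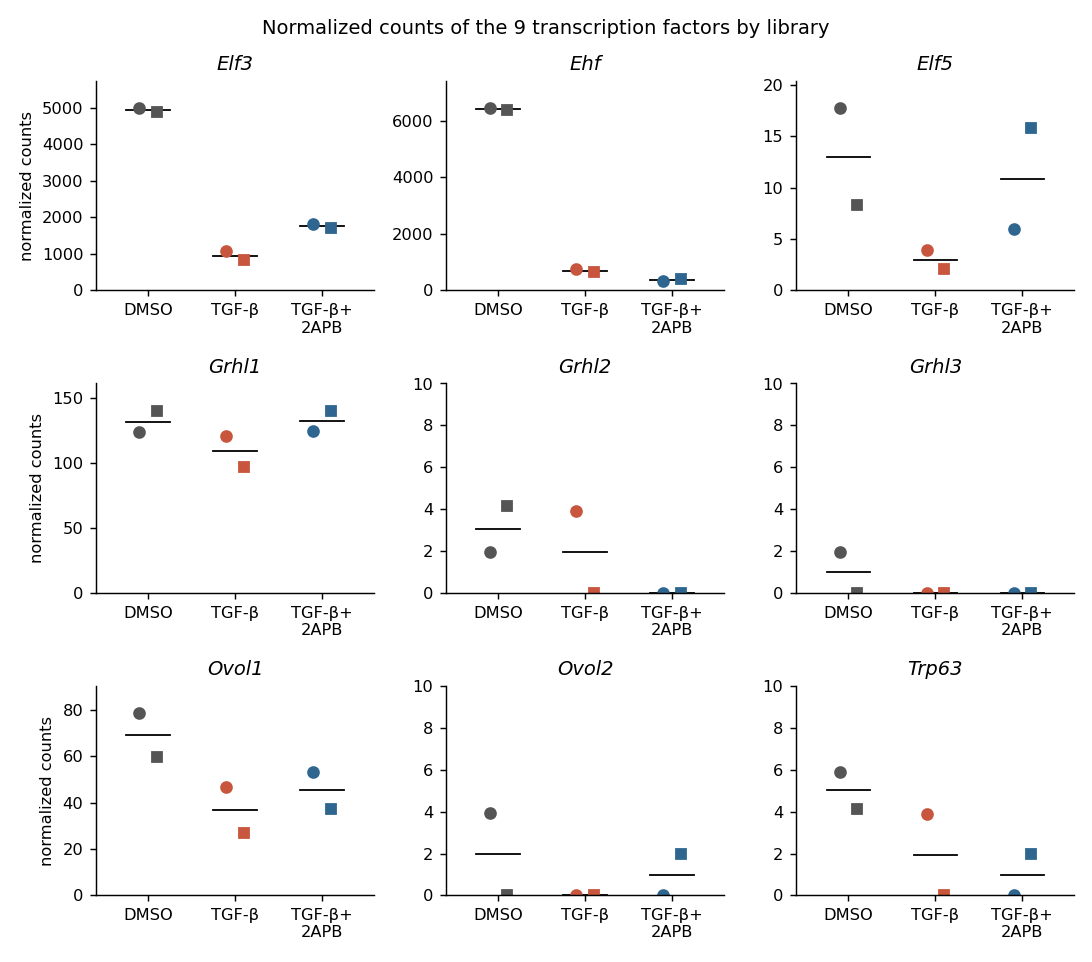
Normalized counts of the 9 transcription factors in each of the 6 libraries, 1 panel for each gene with its own axis. Circles are replicate 1, squares replicate 2 and horizontal lines the mean of the 2 libraries. Elf3 and Ehf separate the 3 groups without overlap, while the other 7 genes lie at or below 140.49 normalized counts.

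Elf3 encodes an ETS activator of simple epithelia such as gut, airway and mammary gland. It lies on the minus strand of GRCm38 at chr1:135253575-135258568, with 2217 bases of exon. The stretch just upstream of this gene is shown because SNAI and ZEB repressors bind E-boxes of the form CAGGTG, and Elf3 is the member with a change in every comparison for which a promoter entry was at hand. The sequence is that of RefSeq on GRCm38.p6, chr1:135258569-135258722, 5′ to 3′ on the gene's strand, with the E-box in capitals, here on the opposite strand and therefore read as CACCTG. For comparison, the upstream stretch of Grhl3, which was near 0 in these cells, is from chr4:135573633-135573882, also on the minus strand.

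Elf3: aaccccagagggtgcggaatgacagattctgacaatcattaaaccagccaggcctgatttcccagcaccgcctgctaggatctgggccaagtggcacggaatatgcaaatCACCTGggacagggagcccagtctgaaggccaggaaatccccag

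Grhl3: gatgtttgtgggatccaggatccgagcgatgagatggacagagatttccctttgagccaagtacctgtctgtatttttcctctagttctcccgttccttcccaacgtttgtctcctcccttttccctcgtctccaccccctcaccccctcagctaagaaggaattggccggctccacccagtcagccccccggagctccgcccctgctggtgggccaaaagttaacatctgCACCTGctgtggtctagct

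RefSeq promoter entries matched 5 of the 9 genes, Elf3, Elf5, Grhl1, Grhl3 and Ovol2, with 7 entries in all. The E-box CAGGTG, searched on both strands in the 250 bases before the start, was present in 3 of the 7 entries, those of Elf3 and Grhl3 and 1 entry of Elf5, against 17.2% of 32851 mouse promoters of the same length. The grainyhead-type motif AACNNGTT, searched the same way, was in 0 of the 7 entries and in 3.64% of all promoters. With no grainyhead-type match in these entries, no match of one motif overlapped one of the other. A match describes the sequence only, and binding was not measured.

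Elf3 had 4984.5 and 4888.2 normalized counts in the DMSO libraries, 1077.2 and 823.84 in the TGF-β libraries, and 1823.4 and 1708.6 in the TGF-β+2APB libraries. The DMSO libraries were highest, the TGF-β libraries lowest and the TGF-β+2APB libraries between them, with no overlap between any pair of groups. Elf3 fell by 2.38 on the log2 scale with TGF-β (SE 0.14, 95% CI -2.72 to -2.03, n = 2 per group, adjusted p = 0.000165, edgeR's quasi-likelihood test with Benjamini-Hochberg adjustment, as for every adjusted p given without another tool). TGF-β+2APB cells remained below DMSO cells, the log2 difference being -1.48 (SE 0.13, edgeR adjusted p = 0.000424). Against TGF-β alone, Elf3 was higher with 2APB by 0.89 on the log2 scale (SE 0.13, 95% CI 0.56 to 1.23, edgeR adjusted p = 0.0123). Without TGF-β+2APB replicate 1 this last difference was 0.81, and without TGF-β+2APB replicate 2 it was 0.93. With each of the 6 libraries left out in turn it ran from 0.71 to 1.10. The call was lost without TGF-β+2APB replicate 1, a fit that leaves 1 library in that group.

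Ehf encodes the ETS factor closest to Elf3 and Elf5 in the epithelial subfamily, expressed in glandular epithelia. It lies on the minus strand at chr2:103263433-103303278, with 5576 bases of exon. Its normalized counts were 6429.2 and 6388.1 in DMSO, 742.16 and 661.98 in TGF-β, and 346.47 and 404.46 in TGF-β+2APB. Here the order of the treated groups was opposite to that of Elf3, with the TGF-β+2APB libraries lowest, and again no pair of groups overlapped. Ehf fell by 3.19 on the log2 scale with TGF-β (SE 0.11, 95% CI -3.46 to -2.92, edgeR adjusted p = 4.84e-05). In TGF-β+2APB cells it was 17.1-fold below DMSO, a log2 difference of -4.09 (SE 0.12, edgeR adjusted p = 1.66e-05). Against TGF-β alone the log2 difference was -0.90 (SE 0.11, 95% CI -1.17 to -0.64, edgeR adjusted p = 0.00687). Leaving out TGF-β+2APB replicate 2 gave -1.02 with an edgeR adjusted p of 0.0181, and leaving out replicate 1 gave -0.83 with an edgeR adjusted p of 0.0344.

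The balance of the 2 factors changed with TGF-β, which lowered both, and again with 2APB, where they moved in opposite directions. The ratio of Elf3 to Ehf counts was 0.775 and 0.765 in DMSO, 1.45 and 1.24 in TGF-β, and 5.26 and 4.22 in TGF-β+2APB. Corrected for exon length, the ratios were 1.95 and 1.92, 3.65 and 3.13, and 13.2 and 10.6. The ratio was lowest in both DMSO libraries and highest in both TGF-β+2APB libraries, without overlap. The comparisons with DMSO share the DMSO libraries, and each of them shares treated libraries with the comparison between treated groups, so the 3 are not independent of one another.

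**Figure D2:**
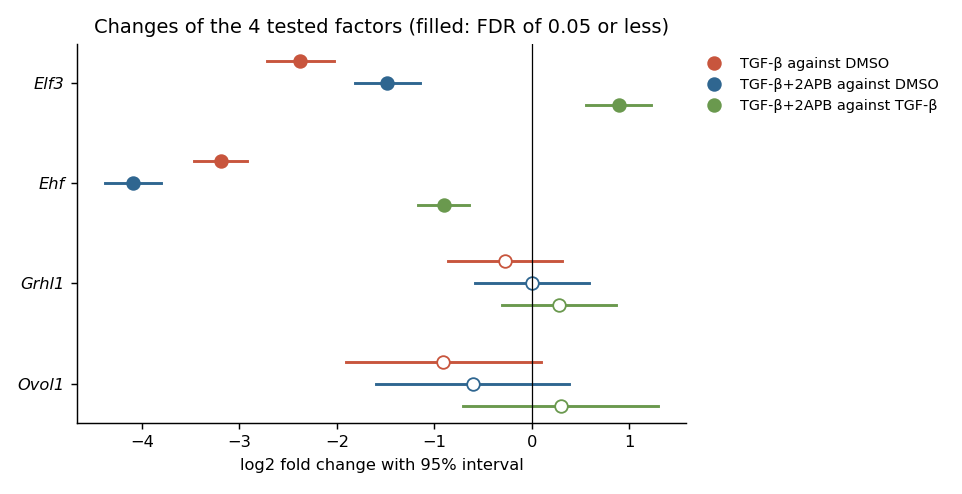
Fitted log2 fold changes of the 4 tested genes in the 3 comparisons, with lines for the 95% confidence interval, filled points for genes called at an adjusted p of 0.05 or less and the line at 0 for no change. Elf3 and Ehf lie below 0 in both comparisons with DMSO and on opposite sides of 0 between TGF-β+2APB and TGF-β, while every interval of Grhl1 and Ovol1 includes 0.

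With TGF-β, Elf3 and Ehf, 2 of the 4 tested, were called lower at an adjusted p of 0.05 or less. The estimates of Grhl1 and Ovol1 were also below 0 but were not called. Of all tested genes, 41.5% were called in that comparison and 19.7% were called lower. Against DMSO, 2 of 4 were lower in TGF-β+2APB, where 52.8% of all tested genes were called and 27.2% were called lower. Between TGF-β+2APB and TGF-β, 1 was higher and 1 lower, where 17.5% of all tested genes were called, 6.58% higher and 10.9% lower. The median log2 fold change of the 4 tested genes was -1.64, -1.04 and 0.29 in the 3 comparisons, and that of all tested genes was -0.01, -0.00326 and -0.00367. With 4 genes tested, their share of calls is not set apart from that background.

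Grhl1 encodes a grainyhead factor that activates desmosomal genes in epidermis. It lies on the plus strand at chr12:24572283-24617391, with 5539 bases of exon. Grhl1 had 123.83 and 140.49 normalized counts in DMSO, 120.77 and 97.533 in TGF-β, and 124.73 and 140.08 in TGF-β+2APB. The TGF-β libraries were below both of the other groups, and the TGF-β+2APB libraries fell within the range of the DMSO libraries. The log2 difference of TGF-β from DMSO was -0.28 (SE 0.24, 95% CI -0.86 to 0.31, edgeR adjusted p = 0.396). Between TGF-β+2APB and TGF-β it was 0.28 (SE 0.24, 95% CI -0.31 to 0.86, edgeR adjusted p = 0.459). The interval from TGF-β+2APB to DMSO ran from -0.58 to 0.59, so that changes larger than these bounds in either direction lay outside it.

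Ovol1 encodes a zinc finger repressor that favours epithelial differentiation and represses Zeb1 in other epithelia. It lies on the minus strand at chr19:5549136-5560646, with 3488 bases of exon. Its normalized counts were 78.62 and 59.915 in DMSO, 46.75 and 26.977 in TGF-β, and 53.455 and 37.487 in TGF-β+2APB. Both DMSO libraries were above all 4 treated libraries, and the treated groups overlapped each other. The log2 difference of TGF-β from DMSO was -0.91 (SE 0.40, 95% CI -1.90 to 0.09), which did not pass the test (unadjusted p = 0.0676, edgeR adjusted p = 0.126). For TGF-β+2APB against DMSO the interval ran from -1.59 to 0.38 (edgeR adjusted p = 0.251), and for TGF-β+2APB against TGF-β from -0.70 to 1.30 (edgeR adjusted p = 0.647).

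The other 5 genes were below the filter on low values, and all but Elf5 lay at or near the limit of detection in every library. A count of 0 allows up to 3 counts, which is between 0.0382 and 0.0407 CPM in these libraries and covers counting error only. As every value was even, the same limit in steps of 2 is 6 counts, between 0.0765 and 0.0815 CPM. Elf5, on the plus strand at chr2:103411688-103450989 next to Ehf, had 18 and 8 counts in DMSO, 4 and 2 in TGF-β, and 6 and 16 in TGF-β+2APB. The DMSO libraries were above the TGF-β libraries, and the TGF-β+2APB libraries overlapped with the DMSO libraries. Ovol2, the relative of Ovol1 on the minus strand at chr2:144305175-144332146, had 4 and 0 counts in DMSO, 0 in both TGF-β libraries, and 0 and 2 in TGF-β+2APB. Grhl2, known for maintaining E-cadherin in many epithelia and lying on the plus strand at chr15:37233036-37363569, had 2 and 4 counts in DMSO, 4 and 0 in TGF-β, and 0 in both TGF-β+2APB libraries. Grhl3, which acts in barrier formation and wound closure (minus strand, chr4:135541888-135573630), had 2 counts in DMSO replicate 1 and 0 in the other 5 libraries. Trp63 (plus strand, chr16:25683763-25892102) had 6 and 4 counts in DMSO, 4 and 0 in TGF-β, and 0 and 2 in TGF-β+2APB. These counts overlap between groups or lie at or near the limit, so no fold change is given for any of these 5 genes. When the filter on low values was left out, edgeR called none of the 5 in any comparison. The lowest of their p-values was that of Elf5 between TGF-β and DMSO, with an unadjusted p of 0.0517 and an edgeR adjusted p of 0.131 in that fit.

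Expressed as CPM per kilobase of exon, which allows levels to be compared between genes, the order in DMSO cells was Elf3, Ehf, Grhl1, Ovol1 and then the 5 genes below the filter. Elf3 stood at 29.1 ± 0.402 (SD, n = 2) and Ehf at 15.0 ± 0.0681. Grhl1 followed at 0.312 ± 0.0278 and Ovol1 at 0.260 ± 0.0496, levels whose library values overlapped. Elf5 was at 0.0289 ± 0.0148 and Ovol2 at 0.0122 ± 0.0172, which also overlapped. In TGF-β cells Elf3 was at 5.61 ± 1.06 and Ehf at 1.65 ± 0.133, and in TGF-β+2APB cells Elf3 was at 10.4 ± 0.479 and Ehf at 0.881 ± 0.0962. The lead of Elf3 over Ehf held in all 6 libraries on this scale, whereas by counts alone Ehf, the longer transcript, was ahead in DMSO cells.

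**Figure D3:**
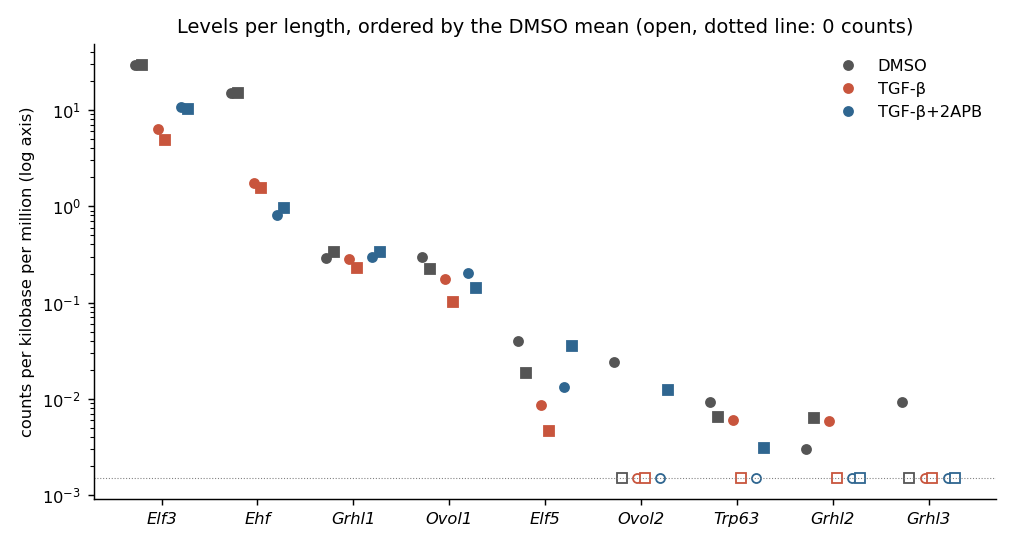
Levels of the 9 transcription factors in CPM per kilobase of exon in each library, on a log axis, with circles for replicate 1, squares for replicate 2, colours for the groups and open symbols on a dotted line for libraries with 0 counts. Elf3 and Ehf stand above the other genes in every library, Grhl1 and Ovol1 between 0.1 and 0.4, and the remaining genes below 0.05.

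Among 20 genes of the ETS family analysed, Elf3 ranked 3 and Ehf 6 per kilobase in DMSO cells, where Ets2 was highest at 47.2 ± 0.813 and Elf4 next at 31.7 ± 0.356. In TGF-β cells Elf3 ranked 12 and Ehf 14, and Elk3 led at 42.2 ± 1.17. In TGF-β+2APB cells Elf3 ranked 7 and Ehf remained at 14. Of the 18 tested relatives of the 9 genes, 24 listed and 22 analysed here, 7 rose and 4 fell with TGF-β, where 21.8% of all tested genes were called higher and 19.7% lower, with a median log2 fold change of 0.08.

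The FGF and ERK targets Etv4 and Etv5 rose with TGF-β and were lower again with 2APB. Etv4 had 864.82 and 983.42 normalized counts in DMSO, 2918.0 and 2394.7 in TGF-β, and 728.57 and 964.79 in TGF-β+2APB. The TGF-β libraries stood above the others, and the DMSO and TGF-β+2APB libraries overlapped. The rise of Etv4 was 1.52 on the log2 scale (SE 0.18, edgeR adjusted p = 0.00158), and the difference of TGF-β+2APB from TGF-β was -1.65 (SE 0.18, edgeR adjusted p = 0.00556). Etv5 rose by 1.08 (SE 0.16, edgeR adjusted p = 0.00393) and differed by -0.99 between TGF-β+2APB and TGF-β (SE 0.16, edgeR adjusted p = 0.0147). That last call was lost without TGF-β+2APB replicate 1 (edgeR adjusted p = 0.0782) and without replicate 2 (0.0501).

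Tfcp2l1, a grainyhead relative of kidney and gland ducts, had 9222.1 and 8619.4 normalized counts in DMSO, 2875.1 and 2691.5 in TGF-β, and 1413.6 and 1830.9 in TGF-β+2APB. Its groups did not overlap and stood in the same order as those of Ehf. The log2 difference from DMSO was -1.68 in TGF-β cells (SE 0.14, edgeR adjusted p = 0.000463) and -2.46 in TGF-β+2APB cells (SE 0.14, edgeR adjusted p = 8.88e-05). Its grainyhead relatives Tfcp2 and Ubp1 were not called in any comparison. Spib, an ETS factor of lymphoid cells and intestinal M cells, fell by 2.48 with TGF-β (SE 0.43, edgeR adjusted p = 0.00654). In the comparison of treated groups, 1 relative was higher (Ets1) and 4 lower (Etv4, Etv5, Elf4 and Tfcp2l1), against a background of 6.58% and 10.9%. Leaving out 1 library at a time moved this count of 5 to between 2 and 9 calls, the low value without TGF-β+2APB replicate 1 or with either DMSO library left out, the high one without TGF-β replicate 2. Without TGF-β+2APB replicate 2 it was 3.

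The repressors that oppose these factors were measured in the same libraries. All 5 tested of the 6 listed EMT repressors were higher in TGF-β cells than in DMSO cells, where 21.8% of all tested genes were called higher, and all 5 were also higher in TGF-β+2APB cells (background 25.6%). Their median log2 fold change was 1.84 and 1.49 in these comparisons. Without DMSO replicate 1 the calls were 3 with TGF-β and 2 with TGF-β+2APB, and without DMSO replicate 2 they were 3 with TGF-β.

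Zeb1, a repressor of E-cadherin and of Ovol and Grhl2 genes, had 3706.9 and 3714.7 normalized counts in DMSO, 8964.3 and 9823.9 in TGF-β, and 11041 and 9876.8 in TGF-β+2APB. All 4 treated libraries stood above the DMSO libraries, with a rise of 1.34 on the log2 scale with TGF-β (SE 0.09, edgeR adjusted p = 0.000268). Its homolog Zeb2 rose by 1.84 (edgeR adjusted p = 0.00183). Snai1, the zinc finger repressor the study centred on, had 5.90 and 12.4 normalized counts in DMSO, 25.3 and 41.5 in TGF-β, and 43.6 and 61.2 in TGF-β+2APB. Every treated library was above both DMSO libraries, though at low counts, and the rise with TGF-β was 1.86 (SE 0.52, edgeR adjusted p = 0.0341). That call was lost without DMSO replicate 1 (edgeR adjusted p = 0.179), without DMSO replicate 2 (0.0625) and without TGF-β replicate 2 (0.0869). Snai2 rose by 1.14 (edgeR adjusted p = 0.00819) and Twist2 by 2.10 (edgeR adjusted p = 0.00276), while Twist1 was not tested, having 6 counts in TGF-β replicate 2 and 0 in the other libraries.

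Between TGF-β+2APB and TGF-β none of the 5 repressors was called by edgeR or by DESeq2, where edgeR called 17.5% of all tested genes. Of the 5, 1 gene, Twist2, had an unadjusted p under 0.05 (edgeR adjusted p = 0.144, log2 difference -0.68). Without TGF-β replicate 2, Zeb2 was called higher by 0.87 (edgeR adjusted p = 0.00326). Snai1 differed by 0.65 (SE 0.47, edgeR adjusted p = 0.385) and Zeb1 by 0.15 (edgeR adjusted p = 0.284).

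**Figure D4:**
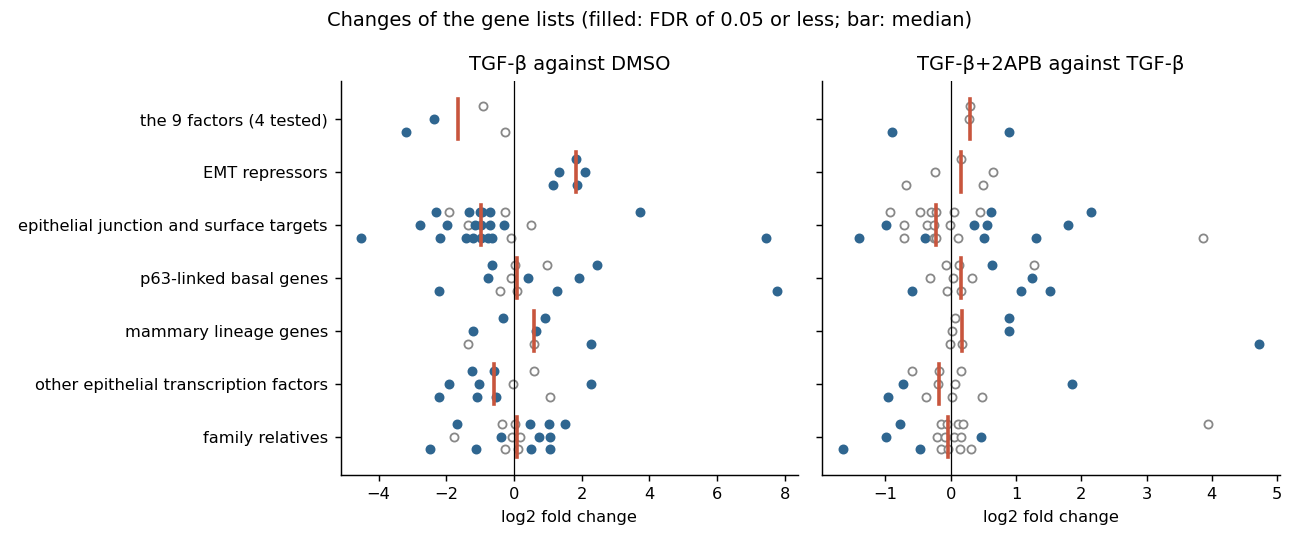
Fitted log2 fold changes of the tested genes of each list for TGF-β against DMSO and for TGF-β+2APB against TGF-β, with filled points for genes called at an adjusted p of 0.05 or less, open points for the others, and a bar at the median of the list. The EMT repressors lie above 0 and most junction and surface genes below 0 in the comparison with DMSO, and the lists of basal, mammary and related genes spread to both sides.

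Genes of cell junctions and the epithelial surface, many of them known to respond to grainyhead, ELF or OVOL factors, fell more often than they rose with TGF-β. Of 34 listed, 32 were analysed and 25 tested. With TGF-β, 18 were lower and 2 higher, with a median log2 fold change of -0.98 (background 19.7% lower and 21.8% higher), and in TGF-β+2APB cells 19 were lower and 5 higher than in DMSO, with a median of -1.22 (background 27.2% and 25.6%). The latter count was 15 lower and 3 higher without DMSO replicate 1, and 16 and 3 without DMSO replicate 2. E-cadherin (Cdh1), the adherens junction cadherin, had 91180 and 90601 normalized counts in DMSO, 58611 and 47241 in TGF-β, and 35058 and 41060 in TGF-β+2APB. Its groups did not overlap, and it fell by 0.78 with TGF-β on the log2 scale (edgeR adjusted p = 0.0055), while the difference between the treated groups, -0.48, did not pass the test (edgeR adjusted p = 0.057). The largest falls with TGF-β among the called genes of this list were those of Erbb3, the neuregulin receptor (-4.51, SE 0.26, edgeR adjusted p = 0.00016), and of Elmo3, an engulfment and motility adaptor (-2.77, SE 0.14, edgeR adjusted p = 0.000107).

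The 2 genes of the junction list that rose were the tight junction claudin Cldn4 and the membrane serine protease St14. Cldn4 had 1.97 and 6.20 normalized counts in DMSO, 712.94 and 742.91 in TGF-β, and 2086.7 and 1529.1 in TGF-β+2APB. The 3 groups did not overlap, and the rise with TGF-β was 7.45 on the log2 scale from a level near the limit (SE 0.36, edgeR adjusted p = 0.000102). St14 rose by 3.72 (SE 0.40, edgeR adjusted p = 0.00129) from 3.93 and 2.07 normalized counts.

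Between TGF-β+2APB and TGF-β, 7 of the 25 junction and surface genes were higher and 3 lower, where 6.58% of all tested genes were higher and 10.9% lower. Higher were Pkp3, a desmosomal plakophilin (2.14, SE 0.41, edgeR adjusted p = 0.0216), St14, Cldn4, the splicing factor Esrp2, Jup, Sh3yl1 and Dsp, and lower were Crb3, an apical polarity protein (-1.40, SE 0.21, edgeR adjusted p = 0.0125), Cxadr and Dsg2. Esrp2 followed the order of Elf3, with 4105.9 and 3882.0 normalized counts in DMSO, 2051.2 and 2000.5 in TGF-β, and 3021.2 and 3166.6 in TGF-β+2APB. Cxadr, the coxsackie and adenovirus receptor, followed that of Ehf, with 31432 and 31563, 15579 and 16388, and 7355.0 and 8787.7. In both genes the groups did not overlap. The split of calls in this list depended on the processing, with 8 higher and 8 lower by DESeq2, 7 and 9 without TGF-β replicate 2, 4 and 2 with 1 DMSO library or TGF-β+2APB replicate 2 left out, and 3 and 2 without TGF-β+2APB replicate 1, where Pkp3 (edgeR adjusted p = 0.0641) and Cldn4 (0.0605) were no longer called.

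Other transcription factors of epithelia also moved, and not all in 1 direction. Of 15 listed, 11 were tested, of which 7 were lower and 1 higher with TGF-β (median -0.59, background 19.7% lower and 21.8% higher). Without DMSO replicate 1 these were 3 lower and 1 higher, and without DMSO replicate 2 they were 4 and 1. Klf4, a zinc finger factor of differentiating epithelia, had 1147.9 and 1086.7 normalized counts in DMSO, 399.32 and 541.62 in TGF-β, and 1712.5 and 1679.0 in TGF-β+2APB. It was lowest in TGF-β and highest in TGF-β+2APB, without overlap, the difference between the treated groups being 1.85 (SE 0.16, edgeR adjusted p = 0.00375). Klf4 and Elf3 were the factors of these 2 lists that were lower with TGF-β and higher again with 2APB.

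Klf5 and Foxa2 fell with TGF-β and were lower still with 2APB, as Ehf was. Foxa2, a forkhead factor of endoderm-derived epithelia, had 10653 and 10787 normalized counts in DMSO, 5873.0 and 4137.9 in TGF-β, and 2053.1 and 3107.5 in TGF-β+2APB. Its groups did not overlap. The difference between the treated groups was -0.96 for Foxa2 (edgeR adjusted p = 0.0486) and -0.73 for Klf5 (edgeR adjusted p = 0.036). Neither call was kept with replicate number as a block, or with only the 4 libraries compared. Both calls were lost without TGF-β+2APB replicate 1 (edgeR adjusted p = 0.157 and 0.133), without DMSO replicate 1 (0.111 and 0.0937) and without DMSO replicate 2 (0.112 and 0.0942), and that of Foxa2 also without TGF-β replicate 1 (0.077). Gata3, which specifies luminal mammary cells, was the gene of this list that rose with TGF-β, by 2.28 (SE 0.24, edgeR adjusted p = 0.00121), from 33.4 and 28.9 normalized counts to 155.83 and 147.34.

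Of 19 genes linked to p63 in basal epithelia, 13 were tested, of which 5 were higher and 3 lower with TGF-β (median 0.09, background 21.8% and 19.7%), and 4 were higher and 1 lower in TGF-β+2APB than in TGF-β (median 0.17, background 6.58% and 10.9%). The latter count was 3 higher and 0 lower without TGF-β+2APB replicate 1, and 4 and 0 with either DMSO library left out. Pkp1, a desmosomal plakophilin, rose from 7.86 and 10.3 normalized counts in DMSO to 2127.1 and 1929.9 in TGF-β and had 3508.2 and 2774.0 in TGF-β+2APB. Lamb3, a chain of the basement membrane protein laminin-332, had 3372.8 and 3427.5 in DMSO, 8379.9 and 7941.7 in TGF-β, and 19422 and 19199 in TGF-β+2APB. In both genes the 3 groups stood apart in that order, and the difference of Lamb3 between the treated groups was 1.24 (SE 0.07, edgeR adjusted p = 0.00234). The other 6 were below the filter. Of these, the basal keratins Krt5, Krt14 and Krt15 had at most 4 counts in any library. The keratin Krt17 had 0 counts in both DMSO libraries, 4 and 6 in TGF-β, and 52 and 40 in TGF-β+2APB. The laminin chain Lama3 had 2 in both DMSO libraries, 6 and 24, and 48 and 36. P-cadherin (Cdh3) was instead highest in DMSO, with 36 and 14 counts, against 2 and 4 in TGF-β and 0 and 2 in TGF-β+2APB.

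Of 15 genes of the mammary lineages, 10 were analysed and 7 tested, of which 3 were higher and 2 lower with TGF-β (median 0.59), and 3 and 1 with any 1 of the DMSO or TGF-β+2APB libraries left out. Of all tested genes 21.8% were called higher and 19.7% lower in that comparison. Between TGF-β+2APB and TGF-β, 3 of the 7 were higher and 0 lower (median 0.18, background 6.58% and 10.9%). The keratin Krt8 of simple epithelia rose by 0.66 with TGF-β and differed by a further 0.90 between TGF-β+2APB and TGF-β (SE 0.09, edgeR adjusted p = 0.00501). Stat5a, which carries the prolactin signal, fell by 1.20 (SE 0.12, edgeR adjusted p = 0.000933). Lactoferrin (Ltf), an iron-binding protein of milk, had 12 and 4 counts in DMSO, 2 and 4 in TGF-β, and 52 and 116 in TGF-β+2APB. Both TGF-β+2APB libraries stood above all others, replicate 2 more so, and the log2 difference from TGF-β was 4.72, from counts near the limit (SE 0.77, edgeR adjusted p = 0.0149). Without TGF-β+2APB replicate 2, Ltf fell below the filter and was not tested. The casein Csn3, below the filter, had 0 and 6 counts in DMSO, 34 and 50 in TGF-β, and 6 and 2 in TGF-β+2APB. The milk genes Csn2, Csn1s1, Wap and Lalba were not analysed here.

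For each tested factor, the tested genes whose log2 levels, centred over the 6 libraries, lay nearest were found by the root mean square difference. Ehf was nearest to Slc16a12 (0.117), Sh2d4a (0.121) and Atp7b (0.130). Elf3 was nearest to Slc38a3 (0.201), Sytl2 (0.203) and Cubn (0.233). For Grhl1 these were Gab1, Tmem219 and Acvr1b, at up to 0.0378, and for Ovol1 Aig1, Arfgap3 and Fbxo44, at up to 0.0822. The 6 libraries share groups, and such likeness describes their order only.

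The labelled cell type was set against lists of marker genes. Of the 7 general epithelial markers all were tested, and their sum was 7408 and 6955 CPM in DMSO, 10850 and 9249 in TGF-β, and 18110 and 17210 in TGF-β+2APB, with Krt8 the most abundant. With TGF-β 3 of the 7 were higher (Krt8, Krt18 and Cldn4) and 3 lower (Cdh1, Epcam and Krt19), against a background of 21.8% and 19.7%. The sum thus followed Krt8 and Krt18. Krt19, a keratin of simple and ductal epithelia, fell from 45112 and 42139 normalized counts in DMSO to 12510 and 8775.9 in TGF-β and had 1686.8 and 3440.9 in TGF-β+2APB. Cdh1 was abundant, but Epcam had only 127.76 and 163.22 normalized counts in DMSO. From outside this marker list, Grhl2, Ovol2, Esrp1 and Cldn7 were at or near the limit in every library. Esrp1 and Cldn7 belong to the junction and surface list, of which 25 of the 32 genes analysed passed the filter on low values. Among those, Esrp2, Spint2 and Dsp had means of 3994, 28697 and 69005 normalized counts in DMSO. All 6 hepatocyte markers were tested, and their sum was 1604 and 1486 CPM in DMSO, 259.6 and 188.9 in TGF-β, and 112.8 and 151.4 in TGF-β+2APB, with Hnf4a the most abundant. Albumin (Alb) had 32124 and 27900 counts in the DMSO libraries and at most 96 in any treated library. High levels of hepatocyte genes go against the mammary label, and they fell in the same libraries in which Elf3 and Ehf fell. Their part in the changes of Elf3 and Ehf was not tested.

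The 5 basal or myoepithelial markers, 2 of them tested, summed to 189.4 and 193.4 CPM in DMSO, 58.9 and 56.26 in TGF-β, and 14.76 and 22.92 in TGF-β+2APB, with Mylk the most abundant. Mylk, a myosin light chain kinase, was the marker that fell, whereas the other tested marker, the smooth muscle actin Acta2, rose by 2.36 on the log2 scale with TGF-β (SE 0.53, edgeR adjusted p = 0.0169). The 5 fibroblast markers analysed, 2 of them tested, rose in sum from 1.723 and 1.973 in DMSO to 22.48 and 23.89 in TGF-β and 31.94 and 24.96 in TGF-β+2APB, Col1a1 being the most abundant. The 4 endothelial markers summed to at most 0.6453 in any library. The 5 immune markers, 3 of them tested, summed to 9.206 and 7.623 in DMSO, 4.129 and 2.851 in TGF-β, and 2.331 and 31.39 in TGF-β+2APB, Cd68 being the most abundant. TGF-β+2APB replicate 2 stood apart in this sum. The ETS factor Spi1, a regulator of myeloid cells, had 339.35 normalized counts there and at most 55.034 in any other library. Without that library the log2 difference between the treated groups was 0.93 for Elf3 and -1.02 for Ehf, against 0.89 and -0.90 with it. The part of the basal and fibroblast markers in the results was not tested.

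**Figure D5:**
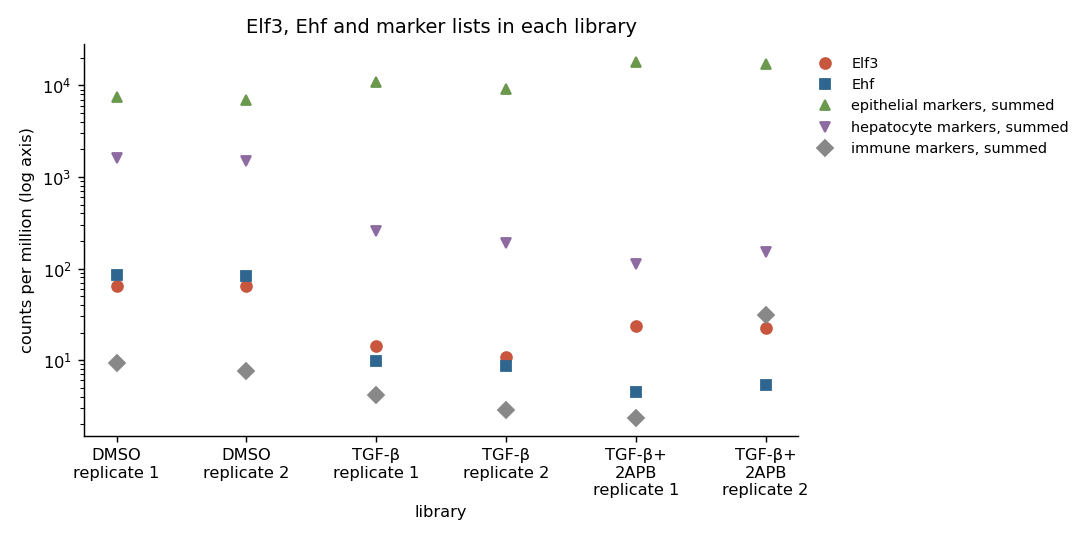
CPM of Elf3 and Ehf and summed CPM of the epithelial, hepatocyte and immune marker lists in each of the 6 libraries, on a log axis. Elf3, Ehf and the hepatocyte markers are highest in the 2 DMSO libraries, and the immune markers stand apart in TGF-β+2APB replicate 2 at 31.39 CPM.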

How the data were processed

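The authors sequenced polyadenylated RNA of 6 NMuMG libraries and deposited a table of raw counts per gene, with no normalization. Reads were aligned with TopHat2 2.0.13 after FastQC 0.11.2, and the labels name the mouse build mm10, while the paper's methods name a human build. The annotation, the strand setting and the treatment of reads matching several genes are not given in the sources used here. Of the gene names, 25 had been turned into dates. No column was left unused (0). The members and lists were chosen with earlier results of these data known. Named were all 9 members, every EMT repressor, the largest changes of each list and the 3 nearest patterns, and other list genes with their values.

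Counts were fitted with edgeR 4.0.16 (R 4.3.3) by the quasi-likelihood test in 1 model over all 6 libraries, with TMM factors, a mean of at least 20 normalized counts, and Benjamini-Hochberg adjustment over the 13353 genes tested, with 0.05 as the threshold. The code was tested on simulated data. Exon lengths came from GENCODE vM21 (GRCm38), in which 145 of 145 list genes matched, and promoters from RefSeq (GRCm38.p6). For the nearest patterns 0.5 CPM were added. Replicates of 1 group differed beyond sampling noise, with a chi-square per degree of freedom of 7.04 in DMSO, 127 in TGF-β and 30.0 in TGF-β+2APB. These values were computed on the deposited counts, all of them even. Doubled counts would raise them, and they were not computed for counts divided by 2. Alternatives were DESeq2 1.42.0, RLE factors, library size scaling, other filters and thresholds, counts divided by 2, the 4 libraries compared alone, a replicate block and each library left out. Some list genes are counted but not reported here by name. Some lists share genes, Gata3 and Foxa1 among them, and Cdh1, Epcam, Cldn4 and keratins are also markers.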

Additional observations from a re-analysis of the deposited data

How the results depend on the processing

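Across 14 alternatives, the calls of Elf3 and Ehf against DMSO were kept in all 14, and so was the call of Ehf between the treated groups, while that of Elf3 was kept in 13. Of the members tested, 2 were called between TGF-β+2APB and TGF-β, but 1 at an adjusted p of 0.01 or less, 0 with a log2 change of at least 1, and 1 to 2 with 1 library left out. Such values were counted for the tested members, the EMT repressors and the largest changes of each list that are named here. Of these, 1493 stayed on their side of the threshold, 69 weakened, 15 strengthened and 16 turned direction, none of these a call. Other genes named here, Cdh1 and Esrp2 among them, were not in this count.

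The labels do not say whether replicate numbers pair the libraries. Differences between replicates correlated over genes at 0.172 for DMSO with TGF-β, -0.464 for DMSO with TGF-β+2APB and -0.206 for TGF-β with TGF-β+2APB. With 2 libraries per group these values cannot decide whether the libraries were paired. With replicate number as a block, 2 of 4 members were called in each comparison, as without it, and over all genes 4737, 6358 and 1342 were called against 5548, 7044 and 2334. With the TGF-β+2APB numbers exchanged, an alternative chosen after seeing the data, as were the list counts under alternatives, these were 5706, 7232 and 2465.

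Over all genes, an adjusted p of 0.01 gave 3369 with TGF-β and 601 between the treated groups, and a log2 change of at least 1 gave 2117, 3029 and 840. Between the treated groups DESeq2 gave 3698 and the 4 libraries alone 860. With 1 library left out, the counts ran from 2753 to 7641, from 4355 to 9006 and from 834 to 5405, a lone library being assumed to vary as the others.

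The values that turned direction were small, and most did so when 1 library was left out. In TGF-β+2APB against DMSO, Grhl1 then ran from -0.0854 to 0.0965 and Etv4 from -0.322 to 0.0561. Between the treated groups the ranges were -0.0400 to 0.754 for Ovol1, -0.343 to 0.143 for Sfn, -0.0654 to 0.147 for Gata3, -0.126 to 0.114 for Stat5a, -0.0698 to 0.818 for Spib, -0.0424 to 0.116 for Elk3 and -0.458 to 0.00335 for Snai2. Grhl1 against DMSO was also -0.0611 under library size scaling, and Stat5a between the treated groups 0.00992 by DESeq2 and 0.00588 with RLE factors. The cause was not tested.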
